A study of Mus musculus with 6 samples.

Results

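The fibroblasts of the postnatal mouse cortex sample were the 141 cells that the authors' cell annotation gave the subtype Fibroblasts, out of 18393 annotated cells, or 17280 once cells marked as doublets were left out. The cells came from a single cell RNA-Seq study of the cerebral cortex at postnatal day 5 (P5), made with the InDrop droplet system after papain dissociation, in 3 wild type (WT) mice (FVB.129P2-Pde6b+ Tyrc-ch/AntJ) and 3 *Fmr1*-KO mice (FVB.129P2-Pde6b+ Tyrc-ch Fmr1tm1Cgr/J). *Fmr1* encodes the RNA-binding protein FMRP, which is lost in Fragile X syndrome, and the targeted allele is present in every cell of the *Fmr1*-KO animals. WT 1, *Fmr1*-KO 1 and *Fmr1*-KO 2 were collected with barcode beads of version 2 (batch 1), and WT 2, WT 3 and *Fmr1*-KO 3 with version 3.8 (batch 2). The annotation placed the fibroblasts within the main type pericytes, which held 1031 cells, and all 141 formed 1 cluster of their own there. Animals of both sexes were used. The study's question was how loss of FMRP alters gene expression in each cell type. The comparisons made here were of the fibroblasts with the 890 cells of the pericyte subtype, with the other subtypes, among themselves, and between genotypes.

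Fibroblasts of the brain lie in the meninges, the layered membranes around the brain, and along larger vessels. In the pia, arachnoid and dura they lay down the fibrillar collagens and proteoglycans of connective tissue, contribute to the basement membrane that covers the cortex, and release signals such as retinoic acid and CXCL12 that act on neural progenitors and migrating neurons. Pericytes sit on the capillary wall inside the shared basement membrane. Both are mesenchymal cells that express platelet-derived growth factor receptors and collagens.

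The fibroblasts were unevenly spread over the mice. WT 1 gave 2, WT 2 gave 22 and WT 3 gave 85, and *Fmr1*-KO 1 to 3 gave 3, 20 and 9, so that 60.3% of all fibroblasts came from WT 3. Fibroblasts were found in 15 of 17 libraries, each made from a single mouse, with at most 35 in one. Libraries of the same mouse shared barcodes, as described below. In WT 3 the 3 libraries gave 25, 35 and 25. WT 3 also held 39 of the 45 microglia-like cells of the subtype Ms4a7_high. For this reason levels against pericytes are given per mouse. Pooled levels and ratios include WT 3 unless stated, and those that moved by over 1.5 times without it are named.

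The depth of the fibroblasts was 541 to 13588 unique molecular identifiers (UMIs, 1 per captured transcript) per cell, with a median of 3435 against 2693.5 in pericytes. The median per mouse lay between 1960 in WT 2 and 4143 in WT 1, and 12229 of 17418 genes had at least 1 UMI in a fibroblast. Summed over cells, fibroblasts held 557687 UMIs, of which 352765 came from WT 3, 86238 from *Fmr1*-KO 2, 61070 from WT 2, 34210 from *Fmr1*-KO 3, 15118 from *Fmr1*-KO 1 and 8286 from WT 1. Levels below are CPM, a gene's UMIs over all UMIs of the summed cells, scaled to 1000000. They come from transcript ends, are not scaled to transcript length, and are compared between cells and not between genes.

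Some barcodes were found in several libraries, and whether such profiles are of the same cell was not tested. Within a mouse, 1854 cell barcodes occurred in more than 1 library, and 1751 of these (94.4%) carried a single subtype. Among the fibroblasts, 25 profiles shared 11 barcodes with another fibroblast of the same mouse, so that the 141 profiles were 127 combinations of mouse and barcode. Of these, 2, 20 and 79 were from WT 1 to 3 and 3, 15 and 8 from *Fmr1*-KO 1 to 3. Counts of genes with 1 profile kept per barcode are given beside the results.

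**Figure D1:**
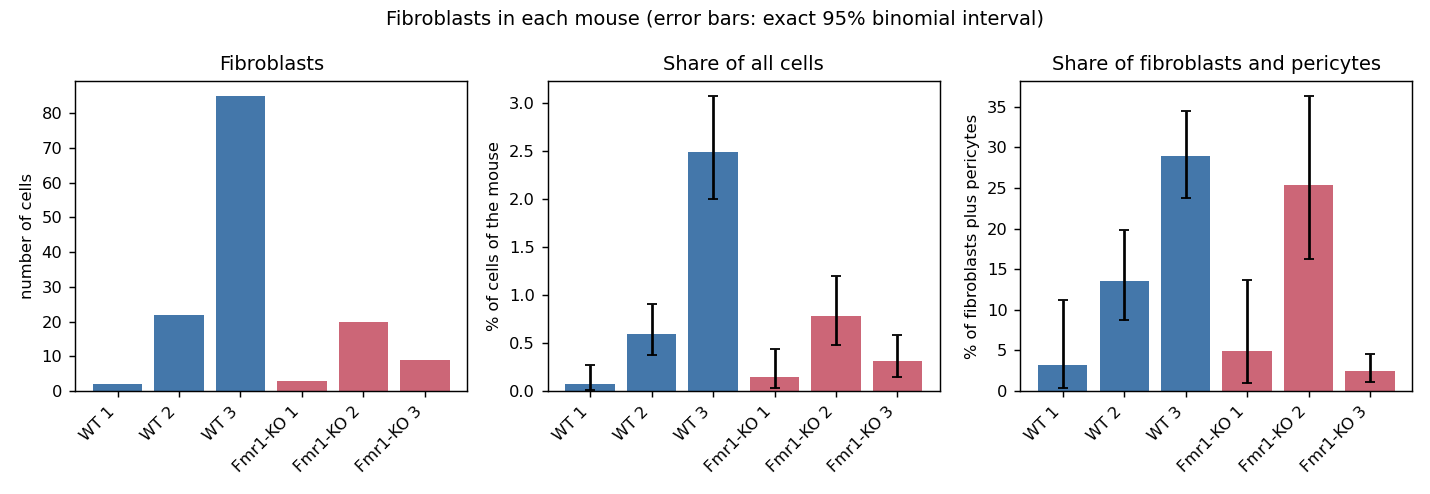
Fibroblasts in each of the 6 mice as bars (WT in blue, *Fmr1*-KO in red), as the number of cells (left), as the percentage of all cells of the mouse other than doublets (middle) and as the percentage of fibroblasts plus pericytes (right), with exact 95% binomial intervals as error bars. WT 3 stands apart with 85 cells and 2.49% of cells, the other 5 mice lie between 0.0754% and 0.778%, and in the right panel *Fmr1*-KO 2 (25.3%) lies near WT 3 (28.9%).

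The markers that define the label, *Col1a1*, *Dcn* and *Lum*, were present. They are part of a list of 10 fibroblast markers. By the 4-fold rule below, 6 of the 10 were called higher than in pericytes and 0 lower, beside 3.15% and 3.71% over all genes. *Pdgfra*, *Fbln1*, *Igf2* and *Mgp* were not called, and *Mgp* pooled lower, at 247 CPM in fibroblasts against 1074 in pericytes. *Col1a1*, which encodes a chain of collagen type I, had a UMI in 136 of the 141 cells, *Dcn*, which encodes the proteoglycan decorin that binds collagen fibrils, in 131, and *Lum*, which encodes the related lumican, in 88. All of these 3 genes were seen in 82 cells, at least 2 of them in 133, and none in 1, whereas 0 of 890 pericytes had a UMI of at least 2 of them, which allows a share of up to 0.337%. Since deeper cells show more genes, each cell was also thinned to 700 UMIs, which kept 139 fibroblasts, all 890 pericytes and 1427 of 1439 endothelial cells. *Col1a1* was then seen in 87.8% of fibroblasts against 0.899% of pericytes and 0.21% of endothelial cells (96.5% and 3.37% in fibroblasts and pericytes before thinning). *Dcn* was seen in 81.3% and 0.112% (92.9% and 0.225% before thinning) and *Lum* in 23.0% and 0% (62.4% and 0.112%). The pericyte shares serve as the background of the fibroblast shares, at a median depth of 2693.5 UMIs in pericytes and 3435 in fibroblasts.

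Defining markers of pericytes were close to absent, while others of the mural list were present. *Rgs5*, a regulator of G-protein signalling and a defining pericyte gene, stood at 0, 5.67 and 0 CPM in fibroblasts of WT 2, WT 3 and *Fmr1*-KO 2, the mice with at least 10 cells of both kinds, against 4927, 4552 and 2783 in pericytes of the same mice. Only 3 of 141 fibroblasts had a UMI of *Rgs5* or *Kcnj8*, and 1 cell had UMIs of at least 2 of *Rgs5*, *Kcnj8*, *Abcc9*, *Higd1b* and *Notch3*. *Pdgfrb*, the receptor for platelet-derived growth factor B, had a UMI in 72 fibroblasts and *Vtn* in 117. No cell of the main type pericytes was marked as a doublet by the authors. The 8 smooth muscle markers summed to 216 ± 71.8 CPM in fibroblasts and 3459 ± 2553 in pericytes (SD, n = 3). Of these *Acta2*, *Myh11*, *Cnn1*, *Des* and *Actg2* had 0 UMIs in fibroblasts, which allows up to 5.38 CPM, while *Myl9* had a UMI in 58 cells, *Tagln* in 19 and *Lmod1* in 7. The 10 microglia and macrophage markers summed to 30.4 ± 15.1 CPM (SD, n = 3 mice), against 28317 in the Ms4a7_high cells, and the 8 choroid plexus markers to 487 ± 182 CPM, of which *Ttr*, *Folr1*, *Otx2* and *Slc4a5* had 0 UMIs. The 10 astrocyte markers summed to 4980 ± 636 CPM in fibroblasts and 2985 ± 501 in pericytes, and their part in the results was not tested. Neuron, oligodendrocyte lineage, ependymal and red blood cell markers summed to 280 ± 189, 83.4 ± 57.8, 190.3 ± 130 and 76.4 ± 132 CPM.

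Genes were compared with pericytes in each of these 3 mice, as the log2 difference with 10 CPM added, among the 4313 genes seen in at least 15% of the fibroblasts or of the pericytes. A gene was called higher or lower where it differed at least 4-fold in every one of the 3 mice. No test is given, because the subtypes were themselves clustered on these genes. There were 136 genes higher (3.15% of the 4313) and 160 lower (3.71%), and the median difference over all 4313 was -0.01. With 1 profile per barcode the numbers were 133 and 158. A gene seen in few cells of both kinds could enter only through the kind where it was high, so these are not shares of all genes.

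Leading the genes higher in fibroblasts was *Ptgds*, which encodes the enzyme that makes prostaglandin D and is also secreted as a lipid carrier (chr2:25466709-25470046, minus strand, GRCm38). It stood at 11200.3, 6673 and 7908 CPM in fibroblasts of WT 2, WT 3 and *Fmr1*-KO 2 and at 3.25, 3.06 and 17.2 CPM in pericytes, a median log2 difference of 9.0. The fibroblast levels of the 3 mice were all far above the pericyte levels, but the transcripts came from a small number of cells, described below. *Dcn* followed with 2079.6, 3166 and 2412 CPM against 0, 1.53 and 0, a median log2 difference of 7.92. *Col1a1* stood at 2898, 3969 and 4209 CPM against 22.7, 7.65 and 17.2, a median log2 difference of 7.28. These collagen and decorin transcripts were found in most fibroblasts. *Fmr1*-KO 2 was within the range of both WT mice for *Dcn* and above them for *Col1a1*.

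The next genes were of several kinds. *Cxcl12*, a chemokine that holds Cajal-Retzius cells and interneurons under the pia, stood at 4487, 4519 and 3699 CPM against 32.5, 49.0 and 80.2 in pericytes, a median log2 difference of 6.26. *Col6a1*, a chain of collagen type VI, stood at 639, 672 and 765 CPM and had 0 UMIs in the pericytes of all mice. Against the limit that 0 of 2717908 pericyte UMIs allows, its pooled level was at least 656-fold higher. *Slc22a6*, a transporter of organic anions, stood at 639, 964 and 417 CPM, again with 0 pericyte UMIs and at least 726-fold higher, or at least 473-fold with WT 3, which gave 340 of its 447 UMIs, left out. *Igfbp2*, which binds insulin-like growth factors, stood at 3226, 4468 and 4128 CPM against 55.2, 148 and 34.4, a median log2 difference of 5.63. That each of these genes lay above the pericyte level in every mouse was required by the rule that called them.

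The rest of the 15 genes farthest above pericytes were *Slc7a11* (a cystine transporter), *Aldh1a2* (a retinoic acid enzyme), *Lum*, the gap junction genes *Gjb2* and *Gja1*, *Cyp1b1* (a cytochrome P450), the bone morphogenetic protein *Bmp7*, and *Islr*, with median log2 differences from 5.93 for *Slc7a11* to 5.50 for *Islr*. The spread between mice was widest for the gap junction genes. *Gja1* stood at 868, 1099.9 and 1797 CPM in fibroblasts and differed from pericytes by 4.16, 5.64 and 7.5 on the log2 scale, and *Gjb2* stood at 180.1, 587 and 568 CPM and differed by 3.53, 5.69 and 5.85.

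The 10 genes farthest below pericytes were genes of the pericyte itself. After *Rgs5* (a median log2 difference of -8.19) came the adhesion receptor *Mcam* (-6.83), the subunits *Kcnj8* (-6.78) and *Abcc9* (-6.68) of the vascular ATP-sensitive potassium channel, *Higd1b* (-6.65), the ATPase *Atp13a5* (-6.60), the receptor *Notch3* (-6.58), *Igfbp7* (-6.37), the guanylate cyclase subunit *Gucy1a3* (-6.17) and *Gm13889* (-6.00). The 12 mural markers summed to 1594 ± 646 CPM in fibroblasts against 18086 ± 964 in pericytes (SD, n = 3). Of the 12 markers 10 were called lower, beside 3.71% over all genes tested. The other two, *Vtn* and *Anpep*, were shared. *Vtn*, which encodes vitronectin, stood at 917, 1811 and 661 CPM in fibroblasts and 1701, 1599 and 1889.8 in pericytes, so that WT 3 fibroblasts were above WT 3 pericytes while WT 2 and *Fmr1*-KO 2 fibroblasts were below.

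**Figure D2:**
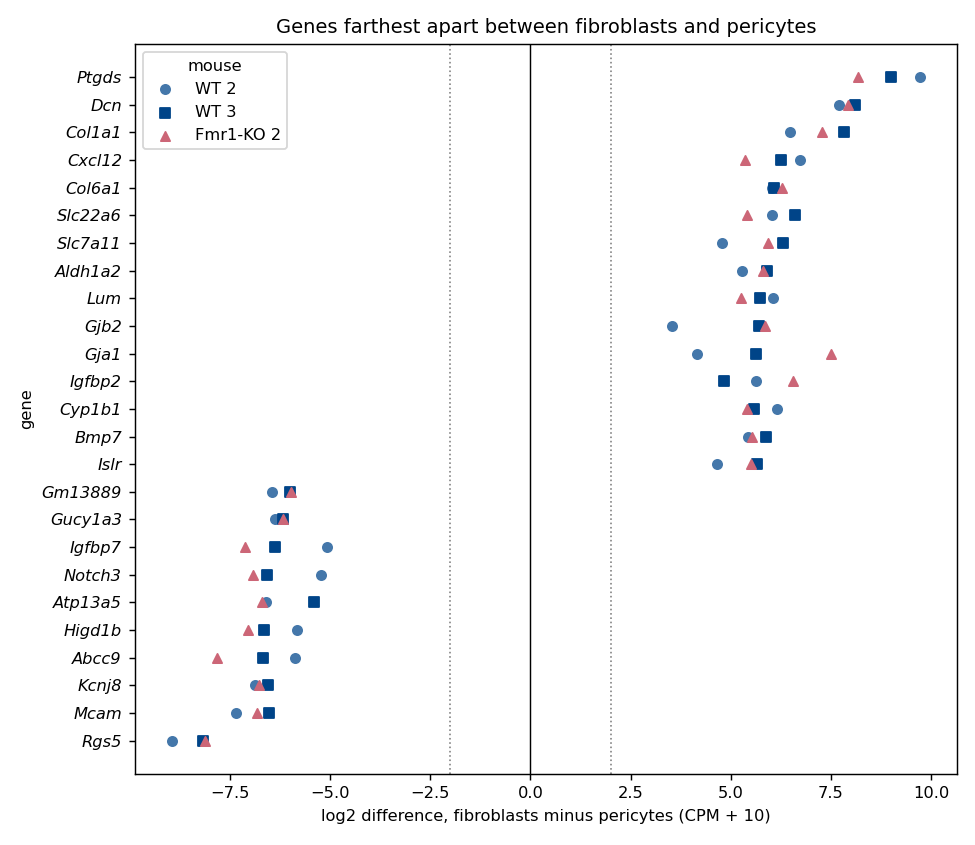
Log2 difference in CPM (10 CPM added) between fibroblasts and pericytes of the same mouse, for the 15 genes farthest above and the 10 farthest below pericytes, with 1 point for each of WT 2, WT 3 and *Fmr1*-KO 2. Dotted lines mark 4-fold, and all points lie beyond them because the rule that called the genes required it. *Ptgds* lies at 9.73, 9.0 and 8.19 and *Rgs5* at -8.95, -8.19 and -8.13.

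Fibrillar collagens, the fibre-forming collagens of connective tissue, were high in fibroblasts. Of the 11 genes 7 passed the filter and 3 were called higher, beside 3.15% over all genes tested. The sum of the 11 was 18000 ± 2495 CPM in fibroblasts against 2040.4 ± 517 in pericytes (SD, n = 3). *Col1a2*, the partner of *Col1a1* in collagen type I, was seen in all 141 fibroblasts at 8007, 9179 and 10738 CPM, and pericytes held 604, 1349.5 and 888. *Col3a1* stood at 3569.7, 4150.1 and 4476 CPM against 529, 800.2 and 578. Collagen type I transcripts thus occurred in pericytes through *Col1a2*, seen in 39.9% of thinned pericytes, while *Col1a1* was seen in 0.899% of them. *Col5a1* and *Col5a2*, chains that join collagen I fibrils, were not called, with median log2 differences of 2.07 and 1.00.

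Of 15 other interstitial collagens 9 passed the filter, and 5 were called higher and 0 lower, beside 3.15% and 3.71% over all genes tested. Those higher were *Col6a1* and *Col6a2*, of the beaded microfilaments, *Col12a1*, which coats fibrils, and the transmembrane collagens *Col13a1* and *Col23a1*. *Col6a2* stood at 540.4, 635 and 823 CPM against 3.25, 13.8 and 11.5. *Col13a1* stood at 426, 357 and 394 CPM against 0, 7.65 and 0. *Col6a3*, the third chain of collagen VI, was not called, at 508, 383 and 464 CPM against 175, 171 and 172, so pericytes held this chain while *Col6a1* was at 0.

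Basement membrane genes showed the opposite balance as a sum and a split within the collagen IV family. Their sum was 13349 ± 2487 CPM in fibroblasts and 17559 ± 1357 in pericytes (SD, n = 3). The widely expressed chain genes *Col4a1* and *Col4a2* were lower in fibroblasts of each mouse, but by less than 4-fold. *Col4a1* stood at 4094, 4306 and 2725 CPM in fibroblasts and 5645, 6786 and 6225 in pericytes. *Col4a5* went the other way, at 966, 714 and 545 CPM against 13.0, 18.4 and 17.2, a median log2 difference of 4.67. *Col4a6*, whose product assembles with that of *Col4a5*, stood at 246, 403 and 301 CPM against 0, 7.65 and 5.73, a median log2 difference of 4.55. Fibroblasts and pericytes therefore shared *Col4a1* and *Col4a2*, and the fibroblasts of all 3 mice held *Col4a5* and *Col4a6* in addition. Among the laminins, *Lama1*, the α chain of the pial basement membrane, was higher at 524, 513 and 487 CPM against 19.5, 30.6 and 28.6. *Lama4*, the α chain of vessel walls, lay at 131, 113 and 209 CPM against 691, 675 and 727, lower in every mouse but not at 4-fold in each. *Col15a1*, a collagen at the border of basement membranes, was called higher at 311, 437 and 197 CPM against 0, 4.59 and 0.

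*Col4a5* and *Col4a6* lie head to head on chromosome X and are read away from each other, with annotated starts 1309 bases apart (GENCODE vM21, GRCm38), and the bases before each start are shown because both genes marked the fibroblasts. They are from RefSeq, GRCm38.p6, given 5′ to 3′ on the strand of the gene, for *Col4a5* at chrX:141475169-141475384 on the plus strand and for *Col4a6* at chrX:141474077-141474326 on the minus strand, and capitals mark matches on either strand to TATAA (the TATA box), CCAAT (the CCAAT box) or GGGCGG (the GC box).
Col4a5: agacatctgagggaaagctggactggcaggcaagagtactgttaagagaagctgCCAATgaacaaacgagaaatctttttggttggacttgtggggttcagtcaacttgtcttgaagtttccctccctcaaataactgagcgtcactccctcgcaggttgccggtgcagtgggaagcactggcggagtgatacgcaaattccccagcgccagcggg
Col4a6: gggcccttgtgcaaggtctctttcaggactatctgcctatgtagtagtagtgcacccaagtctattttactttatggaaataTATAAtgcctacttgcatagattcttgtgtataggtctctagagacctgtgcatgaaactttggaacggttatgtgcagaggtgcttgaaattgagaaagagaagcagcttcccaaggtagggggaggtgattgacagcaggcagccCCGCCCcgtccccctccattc
The *Col4a5* window ends directly before its GENCODE start, and CCAAT was found 162 bases before this start. TATAA was found 168 bases before the *Col4a6* start, and GGGCGG on the opposite strand 21 bases before it. Over 32851 windows of the 250 bases before a RefSeq start, TATAA occurred in 22.8%, CCAAT in 33.8% and GGGCGG in 32.7%, so each match is of a common kind.

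The small leucine-rich proteoglycans moved in both directions. *Dcn*, *Lum* and *Prelp* were called higher and *Aspn* and *Ecm2* lower, out of 13 measured and 8 past the filter. Over all genes tested 3.15% were higher and 3.71% lower. *Lum* stood at 655, 524 and 371 CPM in fibroblasts with 0 UMIs in the pericytes of these mice. *Aspn*, which encodes asporin, stood at 0, 19.8 and 0 CPM against 149, 283 and 218 in pericytes. *Bgn*, which encodes biglycan and is the closest relative of *Dcn*, did not separate the cell types, at 1605, 1627 and 1519 CPM against 1659, 1851 and 1449. *Dcn* and *Lum* are adjacent on chromosome 10 (chr10:97479609-97518143 and chr10:97565128-97572703, both plus strand), and *Ecm2* and *Aspn* on chromosome 13 (chr13:49504810-49532789 and chr13:49544443-49567565). Not all members near each other were called alike, since *Omd* and *Ogn*, beyond *Aspn* on chromosome 13, were not called, nor was *Fmod*, close to *Prelp* on chromosome 1. *Ogn* pooled to 298 CPM in fibroblasts and 74.7 in pericytes, and *Fmod* to 497 and 37.5.

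Of the 27 elastic fibre and adhesive matrix genes 16 passed the filter. Among these 4 were called higher and 0 lower, beside 3.15% and 3.71% over all genes tested. The microfibril genes *Fbn2* and *Mfap4* and the fibulins *Fbln2* and *Fbln5* were the 4. *Fbn2*, which encodes the fibrillin of developing tissue, stood at 475, 419.5 and 707 CPM against 3.25, 42.8 and 11.5, and *Mfap4* at 278, 417 and 267 with 0 pericyte UMIs. Of 28 genes for folding, crosslinking and trimming collagen 20 passed the filter, and of these *Loxl1*, a lysyl oxidase of elastic fibres, was called higher. *Serpinh1*, the collagen chaperone, stood at 2456, 2299 and 2377 CPM against 1373, 1400.0 and 1626. Of 22 matrix proteases and inhibitors 12 passed the filter, and *Serpinf1* was called higher, at 442, 530.1 and 452 CPM against 3.25, 7.65 and 5.73. With 20 and 12 members past the filter, 1 call in each list is not far from the 3.15% over all genes tested.

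**Figure D3:**
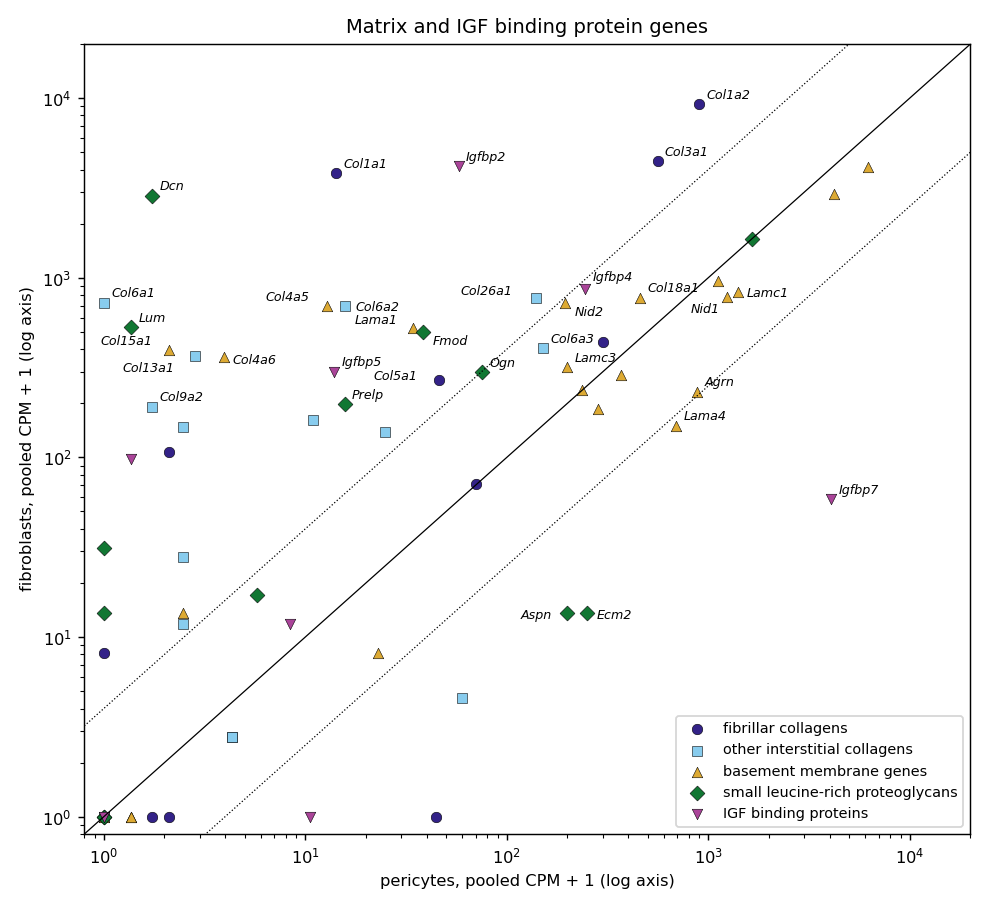
Pooled CPM plus 1 in fibroblasts against pericytes for matrix and IGF binding protein genes, both axes on a log scale, with 1 point a gene. The solid line marks equal levels and the dotted lines 4-fold; *Dcn* lies at 2853 against 0.736 CPM, *Igfbp2* at 4169 against 56.7, and *Igfbp7* on the other side at 57.4 against 4068.

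Genes of retinoic acid handling were higher in fibroblasts. Of 17 measured genes 6 passed the filter and 5 were called higher, with 0 lower, beside 3.15% and 3.71% over all genes tested. Those higher included genes of uptake (*Stra6*) and synthesis (*Aldh1a1*, *Aldh1a2* and *Cyp1b1*, which can also act on retinol). *Aldh1a2* stood at 508, 587 and 545 CPM against 3.25, 0 and 0, and the next highest subtype held 1.47 CPM. *Aldh1a1* stood at 246, 471 and 244 CPM with 0 pericyte UMIs. *Aldh1a1* has a close copy in its neighbour *Aldh1a7*, so the split of reads between them is uncertain.

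Signals that fibroblasts secrete differed in both directions. Of 44 measured genes 23 passed the filter, and 9 were called higher and 1 lower, beside 3.15% and 3.71% over all genes tested. The bone morphogenetic proteins *Bmp2*, *Bmp6* and *Bmp7* were among the 9, at 180.1, 261 and 545 CPM for *Bmp2* and 704, 675 and 719 CPM for *Bmp7*. *Bmp6* stood at 180.1, 558 and 359 CPM with 0 pericyte UMIs, lowest in WT 2. *Wnt4* stood at 458, 1159 and 858 CPM against 58.4, 36.7 and 17.2. The WNT antagonists *Sfrp1* and *Sfrp2* separated the cell types in opposite directions. *Sfrp1* stood at 115, 320.3 and 267 CPM in fibroblasts against 9.74, 0 and 0, while *Sfrp2* had 0 UMIs in fibroblasts of these mice and 276, 278 and 275 CPM in pericytes. The others called higher were *Cxcl12*, *Vegfa*, *Mdk* and *Ptgds*.

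The insulin-like growth factor system was divided between the cell types as well. *Igf2*, a fetal growth factor, had more UMIs in fibroblasts than any other gene, at 11986, 21615 and 21394 CPM, and was also abundant in pericytes at 5164, 3746 and 7021 CPM, a median log2 difference of 1.61. It was not called against pericytes, because WT 2 and *Fmr1*-KO 2 lay under 4-fold. *Igfbp2* and *Igfbp5* were higher in fibroblasts and *Igfbp7* was lower, at 115, 51.0 and 11.6 CPM against 4184, 5049 and 3012. *Igfbp5* rested on 30 cells. *Igfbp4* was not called, at 1081, 899 and 649 CPM against 249.9, 231 and 355.

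Solute carriers that mark the leptomeninges (pia and arachnoid) were present. *Slc6a13*, a carrier of GABA and taurine, *Slc13a4*, a sulfate carrier, *Slc22a6* and *Slc7a11* were called higher. Of the 20 measured 9 passed the filter and 0 were lower, beside 3.15% higher and 3.71% lower over all genes tested. *Slc6a13* stood at 1048, 1511 and 719 CPM against 16.2, 7.65 and 11.5. *Slc13a4* stood at 393, 569.8 and 499 CPM against 0, 0 and 5.73. Not every carrier separated the cell types, since *Slc6a20a* stood at 295, 635 and 325 CPM against 266, 311 and 389.

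The 250 bases before the RefSeq starts of *Slc22a6* and *Cxcl12* are shown as examples of a carrier gene with 0 pericyte UMIs and of the most abundant chemokine of the fibroblasts. They lie at chr19:8617746-8617995 and chr6:117168285-117168534 (GRCm38.p6, both plus strand), with the same letters in capitals as above.
Slc22a6: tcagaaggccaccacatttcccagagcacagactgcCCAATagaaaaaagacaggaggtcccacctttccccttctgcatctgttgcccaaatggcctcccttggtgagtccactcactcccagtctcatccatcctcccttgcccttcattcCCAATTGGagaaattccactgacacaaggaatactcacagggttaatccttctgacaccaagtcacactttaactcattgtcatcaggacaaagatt
Cxcl12: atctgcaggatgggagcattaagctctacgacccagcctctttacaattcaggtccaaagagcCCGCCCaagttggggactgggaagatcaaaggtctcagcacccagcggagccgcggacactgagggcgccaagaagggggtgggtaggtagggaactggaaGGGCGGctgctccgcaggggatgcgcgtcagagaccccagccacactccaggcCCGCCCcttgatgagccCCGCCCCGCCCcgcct
In *Slc22a6*, CCAAT was found 214 and 97 bases before the start and on the opposite strand 94 bases before it, the last pair overlapping. In *Cxcl12*, GGGCGG was found 86 bases before the start and on the opposite strand 187, 33, 16 and 11 bases before it.

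Few transcription factors were called. Of 29 measured factors of the meninges and mesenchyme 19 passed the filter, and *Zic2* and *Osr1* were called higher and *Ebf1* lower, beside 3.15% higher and 3.71% lower over all genes tested. *Foxc1*, which the meninges need to form, stood at 671, 839 and 731 CPM against 448, 508 and 521, and *Zic1* at 1064, 785 and 1067 against 766, 704 and 1065. *Osr1* stood at 65.5, 147 and 325 CPM with 0 pericyte UMIs. *Ebf1* stood at 0, 11.3 and 0 CPM against 432, 393 and 464. A factor seen at few UMIs per cell, such as *Osr1* in 41 fibroblasts, is measured with less precision than a collagen.

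Genes known for several layers of the meninges were found in the summed fibroblasts. Whether the same cells held genes of different layers was not tested. Of the arachnoid genes 4 of 10 were called higher (*Aldh1a2*, *Ptgds*, *Slc6a13*, *Cldn11*), of the pial genes 3 of 8 (*S100a6*, *Lama1*, *Cxcl12*), of the perivascular genes 2 of 8 (*Col15a1*, *Cyp1b1*) and of the dural genes 1 of 9 (*Gjb6*), with 0 lower in each, beside 3.15% higher over all genes tested. Of these lists 5, 8, 7 and 3 members passed the filter, so few dural genes could be called. *S100a6*, a calcium-binding protein, stood at 1326, 921 and 1379.9 CPM against 48.7, 42.8 and 57.3. The dural gene *Mgp*, which encodes matrix Gla protein, stood at 0, 289 and 417 CPM against 367, 2304 and 332 and came from 12 fibroblasts. *Cldn11*, a tight junction claudin of the arachnoid barrier, stood at 426, 485 and 255 CPM against 0, 0 and 17.2 and was also found in oligodendrocytes at 886 CPM.

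Some genes known from other brain cells were part of the fibroblast profile. *Cdh5*, the cadherin of endothelial junctions, had a UMI in 83 fibroblasts and stood at 295, 300.5 and 499 CPM against 9.74, 0 and 0 in pericytes. Its pooled level of 326 CPM (371 without WT 3) was below that of endothelial cells (802), and the next was interneurons at 6.7 CPM. After thinning to 700 UMIs it was seen in 21.6% of fibroblasts, 41.9% of endothelial cells and 0.449% of pericytes. Over the other endothelial markers, *Pecam1*, *Erg*, *Ly6c1* and *Ly6a* had 0 UMIs in fibroblasts, *Cldn5* stood at 5.38 CPM and *Flt1* at 3.59 CPM (2 UMIs, both from WT 3). The 10 endothelial markers summed to 396 ± 109 CPM, most of it *Cdh5*, against 13926 in endothelial cells. Of 10 astrocyte markers 6 passed the filter. The glutamate transporter *Slc1a3* and the connexin gene *Gja1* were called higher and *Mfge8* lower, beside 3.15% higher and 3.71% lower over all genes tested. *Slc1a3* stood at 1277, 819 and 696 CPM, against 6700.1 in the main astrocyte subtype, while *Gja1* pooled to 1185 CPM against 1364 there. Of 8 choroid plexus markers only *Enpp2* passed the filter, and it was called higher, at 246, 549.9 and 406 CPM against 39.0, 6.12 and 5.73.

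In lists of genes for processes that vary with cell state, no member was called. Of 32 cell division genes 3 passed the filter, and of 22 complement and chemokine genes 7, and 0 were called in either direction. Of 20 immediate early and stress genes, which dissociation can induce, 19 passed and 0 were called. Over all genes tested 3.15% were higher and 3.71% lower, so 0 calls among so few members says little. The sum of the immediate early and stress genes was 8971 ± 1896 CPM in fibroblasts and 13369 ± 6571 in pericytes (SD, n = 3), with *Fos* at 2047, 2067 and 1264 against 2457, 4140.3 and 796 CPM. The sum in pericytes was highest in WT 3.

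Taken over list members that passed the filter, the median log2 difference was 2.73 for fibrillar collagens (7 members), 3.8 for other interstitial collagens (9), -0.37 for basement membrane genes (17), 3.95 for retinoic acid genes (6), 1.30 for secreted signals (23), 1.20 for the solute carriers (9) and 0.57 for the transcription factors (19), beside -0.01 over all 4313 genes. Members seen in too few cells of both kinds are not in these medians, and the lists were drawn up knowing what fibroblasts express, so the medians describe the cells and test nothing.

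Across the whole cortex sample, 75 of 17418 genes (0.431%) had a pooled level in fibroblasts at least 4 times that of each of the other 15 subtypes with 30 or more cells, with 10 CPM added. With 1 profile per barcode this number was also 75. The largest ratio was that of *Dcn*, at 2853 CPM (2313 without WT 3) against 3.13 CPM in the next subtype, excitatory neurons, a ratio of 218. *Col1a1* followed with a ratio of 160.5 and *Ptgds* with 114, the next subtype for *Ptgds* being the main astrocytes at 48.6 CPM. *Slc22a6* (76.4), *Slc6a13* (67.8), *Aldh1a2* (51.0), *Col6a1* (48.8), *Col13a1* (31.9), *Lum* (28.5) and *Gjb2* (28.4) came next, and then the endothelin *Edn3* (28.2), *Fam180a* (25.9), *Aldh1a1* (19.8), *Cyp1b1* (16.6) and *Osr1* (16.3). Subtypes under 30 cells do not enter these ratios, and border macrophages (12 cells) held *Gjb2* at 209 CPM against 524 in fibroblasts. Without WT 3 in the pooled fibroblasts, the ratio of *Slc22a6* was 50.1, that of *Fam180a* 15.9 and that of *Aldh1a1* 11.9, and those of the other 12 moved by less than 1.5 times.

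Several genes that set fibroblasts apart from pericytes were shared with another subtype. *Cxcl12* was also found in Cajal-Retzius cells, early neurons under the pia, at 1929 CPM against 4312 in fibroblasts. *Pdgfra*, the receptor that marks fibroblasts in many tissues, pooled to 579 CPM in fibroblasts and 3353 in oligodendrocyte precursors, so it did not single out fibroblasts here. *Bmp7* pooled to 656 CPM against 141 in the same precursors. *S100a6* pooled to 1108 CPM against 508 in oligodendrocytes.

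The 10 genes with the highest pooled level in fibroblasts mixed identity and housekeeping. Among them were *Igf2* (20415 CPM), the growth factor *Ptn* (11628), the translation factor *Eef1a1* (9690.0), *Col1a2* (9251), the matrix protein *Sparc* (6792), *Ptgds* (6670.4), *Tpt1* (6559), *Col3a1* (4456) and *Cxcl12* (4312). *Sparc* did not separate fibroblasts from pericytes, at a pooled level of 5539.9 CPM in pericytes.

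**Figure D4:**
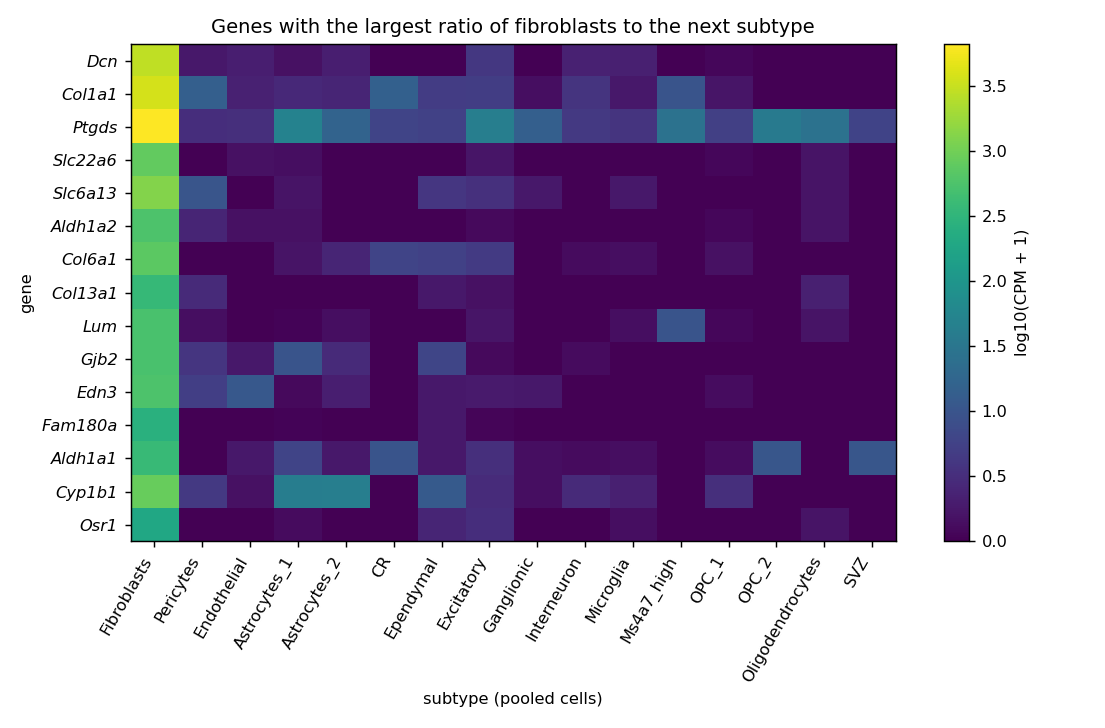
Pooled level, as log10 of CPM plus 1 on a colour scale, of the 15 genes with the largest ratio of fibroblasts to the next subtype (rows), in fibroblasts and the other 15 subtypes with at least 30 cells (columns). The fibroblast column is the brightest in every row, from 188 CPM for *Osr1* to 6670.4 CPM for *Ptgds*, and the next highest level of *Ptgds*, in the main astrocytes, is 48.6 CPM.

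Fibroblasts also differed among themselves, and among the 405 genes with at least 200 UMIs they differed most in *Ptgds*. Of its 3720 UMIs, 98.7% came from 12 cells with 10 or more each, which had 12 distinct barcodes. They were 8.51% of the fibroblasts (exact 95% interval 4.48 to 14.4%, counting error only, over the pooled cells of all mice). These cells held between 12 and 964 *Ptgds* UMIs with a median of 110, up to 29.5% of all UMIs of a cell, while the highest number in the other 129 cells was 6. Their depth ran from 1124 to 13588 UMIs with a median of 3041.5, against a median of 3438 in the others, and the deepest fibroblast was among them. Of the 12, 4 lay near the limit with 10 to 19 *Ptgds* UMIs, 2 of the 3 from WT 2 and 2 of the 8 from WT 3. Of the 12 cells 3 were from WT 2, 8 from WT 3 and 1 from *Fmr1*-KO 2, and this 1 cell gave 673 of the 682 *Ptgds* UMIs of that mouse. The *Ptgds* levels by mouse given above therefore rest on a few cells each.

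To see how uncommon this was, the share of UMIs held by the 14 cells with most of them was taken for each of the 405 genes with at least 200 UMIs in fibroblasts. The median over these genes was 33.1%, and the 14 deepest cells held 23.7% of all UMIs. *Ptgds* ranked first with 99.0%, followed by *Fn1* (fibronectin) with 83.8%, *Egr1* with 71.6%, *Nnat* with 71.3% and *Cldn11* with 69.6%. *Col1a2* (26.7%), *Igf2* (32.3%) and *Cxcl12* (26.9%) were near or under the median. Among genes with fewer UMIs, *Mgp* came from 12 cells, *Nov* from 17 and *Igfbp6* from 6.

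**Figure D5:**
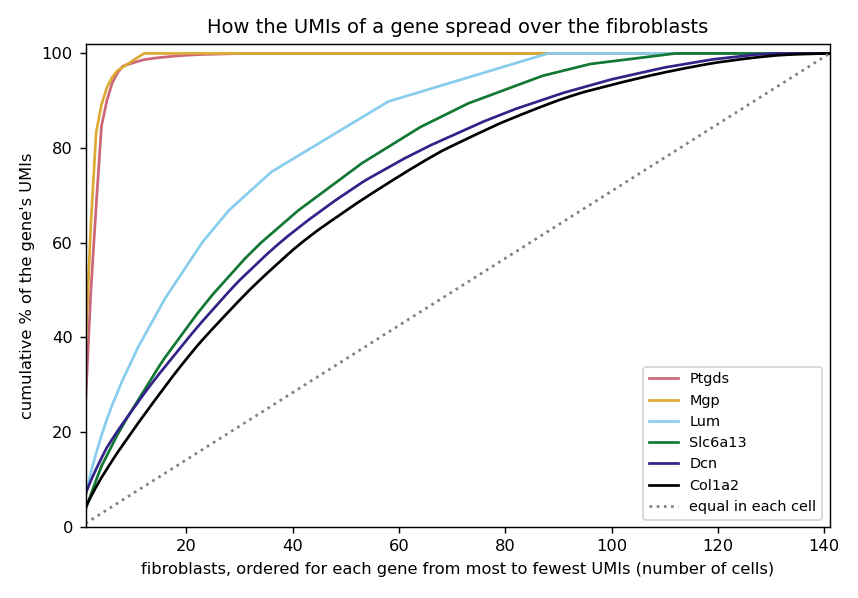
Cumulative percentage of a gene's UMIs (vertical axis) over the 141 fibroblasts, ordered for each gene from most to fewest UMIs (horizontal axis, number of cells), for 6 genes, with a dotted line for equal UMIs in each cell. By 14 cells the curve of *Ptgds* reaches 99.0% and that of *Mgp*, seen in 12 cells, is complete, while *Lum* is at 44.3%, *Slc6a13* at 32.4%, *Dcn* at 31.0% and *Col1a2* at 26.7%.

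The 12 cells with 10 or more *Ptgds* UMIs were set beside the other 129 as a description, since they were chosen on these counts. Collagen I and decorin were present in both, with *Col1a1* at 3049 CPM in the 12 cells and 3914 in the others and *Dcn* at 4268 and 2690.5. The level of *Dcn* rested on cells near the limit, since the 8 cells with 20 or more *Ptgds* UMIs, a limit chosen after seeing the data, held 2764 CPM. It also rested on WT 3, without which *Dcn* stood at 1945 CPM in the group with 10 or more and 2333 in the others. *Slc6a13* pooled to 1254 and 1295 CPM and *Aldh1a2* to 819 and 548. The mice differed in direction for *Slc6a13*, at 1632 against 968 CPM in WT 2, 1167 against 1564 in WT 3 and 1705 against 684 in *Fmr1*-KO 2. These rested on 12, 55 and 5 UMIs in the 12-cell group. The adhesion molecule *Alcam* stood at 2299.7 CPM in the 12 cells against 104 in the others, and had a UMI in 10 of 12 and 27 of 129. *Alcam* was the higher in the 12 cells within each mouse, at 816 against 0 CPM in WT 2, 2186 against 111 in WT 3 and 7842 against 156 in *Fmr1*-KO 2, the last from 1 cell. *Nnat*, which encodes neuronatin, was likewise higher in each, at 2176 against 223 CPM in WT 2, 1358 against 232 in WT 3 and 3409 against 324 in *Fmr1*-KO 2.

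*Fn1* pooled to 1307 against 308 CPM, but only WT 3 had the 12-cell group higher (1549 against 170.1), and without WT 3 the values were 194 and 524. *Cldn11* stood at 1422 against 340.3 CPM in WT 3, where the 12-cell group held 67 UMIs. The values were 544 against 409.5 CPM in WT 2 and 341 against 252 in *Fmr1*-KO 2. These rested on 4 UMIs and 1 UMI in the 12-cell group, too few to compare. *Col4a1* was lower in each, at 3400.4 against 4189 CPM in WT 2, 297 against 4924 in WT 3 and 0 against 2821 in *Fmr1*-KO 2. *S100a6* was lower in each as well, at 1224 against 1340.3 CPM in WT 2, 21.2 against 1060.0 in WT 3 and 0 against 1428 in *Fmr1*-KO 2. The WT 2 values of both are mostly from the 2 cells near the limit. In the 8 cells with 20 or more *Ptgds* UMIs, *Col4a1* stood at 86.4 CPM and *S100a6* at 28.8 CPM, from 3 UMIs and 1 UMI, against 4511 and 1215 CPM in the other 129. *Cxcl12* was lower within each mouse, at 2176 against 4803 CPM in WT 2, 1231 against 5025 in WT 3 and 341 against 3817 in *Fmr1*-KO 2.

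Between genotypes, *Fmr1* itself was too rarely captured in fibroblasts to check the labels. It had 0, 1 and 14 UMIs in WT 1 to 3 and 0, 1 and 1 in *Fmr1*-KO 1 to 3. Pooled, WT fibroblasts stood at 35.5 CPM (exact 95% Poisson interval 19.9 to 58.6, counting error only) and *Fmr1*-KO fibroblasts at 14.8 (1.79 to 53.3), and the intervals overlapped. Counts are taken near the 3′ end of transcripts, which the targeted allele leaves in place, so a low number of *Fmr1* UMIs would not be required of a knockout.

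The number of fibroblasts did not differ between genotypes beyond the spread between mice. Fibroblasts were 0.0754, 0.598 and 2.49% of the cells in WT 1 to 3 and 0.148, 0.778 and 0.307% in *Fmr1*-KO 1 to 3, or 1.05 ± 1.27% and 0.411 ± 0.327% (SD, n = 3). The range of the WT mice enclosed all 3 *Fmr1*-KO mice. In edgeR's quasi-likelihood test over the cells of each subtype, with batch as a term, the log2 difference (*Fmr1*-KO minus WT) was -0.30 with an SE of 1.63 and a Benjamini-Hochberg adjusted p of 0.943, and 0 of 18 subtypes were called (0%). A two-sided exact permutation test of the share gave p = 0.7, where the smallest p this design allows is 0.1. The direction rested on single mice, since the log2 difference was 0.56 without WT 3 and 2.58 without *Fmr1*-KO 3. Within batch 1 the share was 0.0754% in WT 1 against 0.148 and 0.778% in *Fmr1*-KO 1 and 2, and within batch 2 it was 0.598 and 2.49% in WT 2 and 3 against 0.307% in *Fmr1*-KO 3, so that the *Fmr1*-KO mice were above WT in one batch and below in the other. As a share of fibroblasts and pericytes together, fibroblasts were 3.23, 13.6 and 28.9% in WT 1 to 3 and 4.92, 25.3 and 2.41% in *Fmr1*-KO 1 to 3.

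Gene expression within fibroblasts could not be tested by genotype at the set minimum of 10 cells per mouse, which left 2 WT mice and 1 *Fmr1*-KO mouse. With a minimum of 5, *Fmr1*-KO 3 with 9 cells entered, and with batch as a term the contrast was set by this mouse against WT 2 and WT 3. At an adjusted p under 0.01 and past the fold limit of the study's own test, 4 of 3826 genes (0.105%) were called by edgeR's quasi-likelihood test, all lower in *Fmr1*-KO, and 338 had an unadjusted p under 0.05. *Ptgds* had 684, 2354, 682 and 0 UMIs in WT 2, WT 3, *Fmr1*-KO 2 and *Fmr1*-KO 3. *Apoe*, the lipid carrier, had 125, 1500, 182 and 24, or 2046.8, 4252, 2110.4 and 702 CPM. *Slc13a4* had 24, 201, 43 and 0, and *Wnt4* 28, 409, 74 and 4. In CPM, *Fmr1*-KO 2 lay between the WT mice in all 4 genes, and only *Fmr1*-KO 3 lay outside their range. The fitted log2 difference was -2.16 for *Apoe* and -2.83 for *Wnt4*. Since the *Fmr1*-KO side of this contrast was 1 mouse, its p-values hold no spread between *Fmr1*-KO mice and are not given for single genes. With no batch term 0 genes were called, and 155 had an unadjusted p under 0.05. Of the *Ptgds* UMIs 98.7% came from 12 of 141 cells, and 0 of the 9 cells of *Fmr1*-KO 3 held 10 or more. These 9 cells are of 1 mouse and are not replicates, and whether the number of cells captured sets the *Ptgds* call was not tested. The calls compare 1 mouse with 2 and were not tested in a second *Fmr1*-KO mouse of that batch.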

How the data were processed

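Single cell RNA-Seq of the cortex of 6 P5 mice was used as deposited. Per the labels and the study's methods, the authors aligned reads to mm10 with TopHat2 2.0.14, counted UMIs per gene at transcript ends, removed low-count barcodes, clustered the cells in 2 rounds and marked 1113 cells as doublets, which were left out here. The deposited counts are raw UMI counts of 17418 genes in 18393 cells. The authors' size factor of each cell, a ratio, was used only as an alternative scaling. No cell was clustered anew and no doublet caller was run. The fibroblasts, gene lists and comparisons were chosen with earlier results of these data known.

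Counts were summed per mouse and subtype with Python 3.11.15 (numpy 2.4.6, pandas 2.3.3, scipy 1.17.1). Differences from pericytes are log2 of CPM with 10 CPM added, which understates changes of low genes, in mice with at least 10 cells of both subtypes, and are descriptions. Named genes were the 15 farthest above and 10 farthest below pericytes, the 15 with the largest ratio to the next subtype, list members that were called or at 100 CPM or more, the called genes between genotypes, and the 10 most abundant. Genes shown as uneven among cells or in the 12 *Ptgds* cells were chosen after their values were seen, as were the limit of 20 *Ptgds* UMIs and the ratios without WT 3. Genotypes were tested with edgeR 4.0.16 in R 4.3.3 (quasi-likelihood, TMM, batch as a term, Benjamini-Hochberg), with DESeq2 1.42.0 as an alternative. The edgeR fit and the 4-fold rule were tested on simulated data. The replicate is the mouse. Total depth per mouse was 8070039 to 20677233 UMIs, and intervals on counts cover counting error only. Replicate numbers did not pair the mice: the deviations of cell numbers of equally numbered WT and *Fmr1*-KO mice correlated at r = 0.18, 0.07 and 0.15 over 18 subtypes. Sequences were read from RefSeq windows of GRCm38.p6, and gene positions from GENCODE vM21. Some genes that the naming rule selects are not reported here. Windows of *Col1a1*, *Dcn* and *Lum* were not used here.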

Additional observations from a re-analysis of the deposited data

How the results depend on the processing

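Counts of genes that separate fibroblasts from other cells moved with the constant added to CPM. With 50 CPM added, 52 genes were higher than in pericytes, 57 were lower, and 36 were above every other subtype, and with 1 CPM added 136 were above every other subtype. Leaving out 1 mouse at a time gave 151 to 179 genes higher, 182 to 196 lower and 70 to 78 above every other subtype. Over the 25 genes farthest from pericytes, 275 values under the alternatives changed sign in 0 cases and moved by more than the SD between mice in 54. A change of sign was hardly possible, since these genes were chosen as at least 4-fold apart in every mouse. For the number of fibroblasts, leaving out 1 mouse at a time gave log2 differences from -2.31 to 2.58, the direction turning without WT 3 (0.56) and without *Fmr1*-KO 3 (2.58), and the replicate block in place of batch gave -0.78. For genes by genotype in mice with at least 5 fibroblasts, an alternative chosen after seeing the data, the number called was 0 with no batch term, 0 with the replicate block, 1 with edgeR's filterByExpr, 1 with cells thinned to 700 UMIs, 1 with DESeq2, 1 without *Fmr1*-KO 2, and 11 at an adjusted p under 0.05 with no fold limit. The fits without WT 2, WT 3 or *Fmr1*-KO 3 could not be made with the batch term. Apart from what the 4-fold rule fixes when mice are left out or added, the cause of these shifts was not tested. About 5.38 CPM over all fibroblasts, the level of 3 UMIs, is the limit that 0 UMIs allows, so genes below it could be missed at this depth.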
